A study of Homo sapiens with 6 samples.

Results

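The 6 loci described here are genes picked for stretches where the antibody DHX9-Rb left groups of peaks and the antibody DHX9-mAb left few or none: HN1, SUMO2, ARIH2, QRICH1, RERE and TRA2A. In ARIH2 this applies to part of the gene only. The genes were selected on the peak numbers of these same lists, so the numbers of peaks per gene are descriptions and carry no test. Their members are the peaks that touch each gene's interval on its own strand in the human assembly hg19. They amount to 124 of 21618 DHX9-Rb peaks and 15 of 6831 DHX9-mAb peaks. All samples were HEK293 cells, an established line from human embryonic kidney, with no treatment other than the ultraviolet light that cross-links protein to RNA. RNA bound to DHX9 was captured by FLASH, a cross-linking and immunoprecipitation assay, with DHX9-mAb (2 biological replicates), DHX9-Rb (2) or the control immunoglobulin IgG-Rb (2). Each list stands for both replicates of its antibody and gives position and strand only, so no replicate error and no read depth stand behind a peak. The IgG-Rb libraries were not analysed here.

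DHX9, or RNA helicase A, is a mainly nuclear enzyme that unwinds RNA duplexes, among them hairpins that form when neighbouring Alu repeats of opposite orientation pair within a transcript. A peak is a stretch where cross-linked fragments pile up, so a group of peaks marks part of a transcript recovered with that antibody. Whether DHX9 itself touched the groups seen with DHX9-Rb alone was not tested. The genes have varied roles. SUMO2 encodes a small ubiquitin-like modifier that is joined to other proteins, and ARIH2 encodes a RING-between-RING ubiquitin ligase. RERE encodes a corepressor of the atrophin family, QRICH1 a glutamine-rich regulator of transcription, and TRA2A a splicing factor with arginine-serine repeats. HN1, now named JPT1, encodes a small protein linked to microtubules.

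The label of few DHX9-mAb peaks held for 5 of the genes and not for ARIH2. HN1 had 13 DHX9-Rb peaks, SUMO2 had 5, QRICH1 had 18 and TRA2A had 7, each with 0 DHX9-mAb peaks. RERE had 56 DHX9-Rb and 7 DHX9-mAb peaks, a ratio of 0.125 DHX9-mAb to 1 DHX9-Rb. ARIH2 had 25 and 8, a ratio of 0.32, against 0.316 over the whole lists. Counted peak by peak, ARIH2 as a whole therefore sat at the level of the lists. With peaks within 50 nt of each other merged it had 23 DHX9-Rb and 5 DHX9-mAb peaks, so its ratio depends on how close peaks are divided. The ratio of the whole lists after merging is not given here, so the merged counts are not compared with them. The last of its DHX9-mAb peaks began 19.6 kb from the 5′ end of an interval of 67.5 kb.

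**Figure D1:**
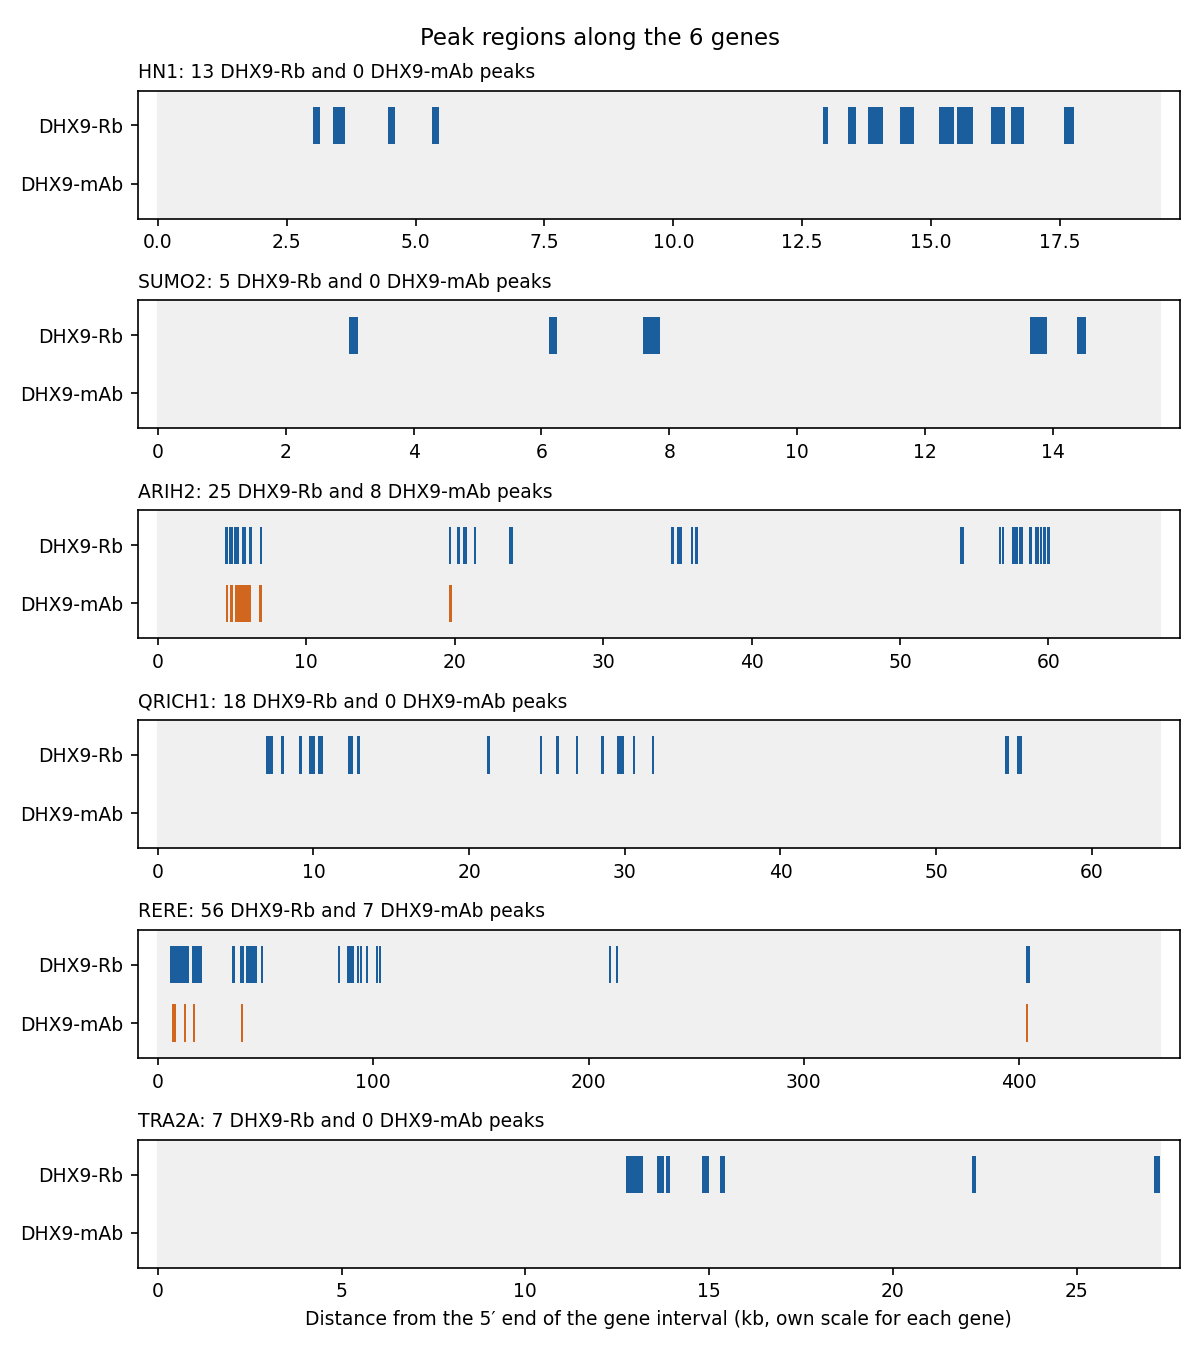
Peak regions of both antibodies along the 6 gene intervals, drawn from the 5′ end (left) in kb, each gene on its own scale with its interval shaded. HN1, SUMO2, QRICH1 and TRA2A have an empty DHX9-mAb row, and the DHX9-mAb peaks of ARIH2 and RERE lie mostly near the 5′ end.

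A DHX9-Rb peak is called shared below when a DHX9-mAb peak of its strand overlaps it by 1 nt or more. Of the 124 DHX9-Rb peaks, 15 were shared, or 12.1%, beside 28.6% of all DHX9-Rb peaks. That gap belongs to the contrast by which the genes were chosen, and nothing is read from it. By gene the share was 28.0% in ARIH2 (7 of 25) and 14.3% in RERE (8 of 56). In the other 4 genes it was 0 of 43 peaks, as the choice of the genes fixed. Seen from the other side, all 15 DHX9-mAb peaks in ARIH2 and RERE overlapped a DHX9-Rb peak, as did 88.0% of all DHX9-mAb peaks. No member peak of DHX9-mAb stood apart from DHX9-Rb.

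SUMO2 and HN1 lie next to each other on the minus strand of chromosome 17, with 12.6 kb between their intervals and no peak of either antibody in that stretch. SUMO2, from 73163408 to 73179078, had the fewest peaks and the widest median gap. Its 5 DHX9-Rb peaks began 2.99, 6.11, 7.6, 13.6 and 14.4 kb from the 5′ end and were 151, 127, 266, 271 and 138 nt wide. The median gap between them was 2166 nt, and 1 of the 4 gaps was within 1 kb. Peaks of SUMO2 thus stood singly or in a close pair and covered 6.08% of the interval.

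HN1, from 73131343 to 73150778, had the most DHX9-Rb peaks for its length among the 6 genes, 6.69 per 10 kb, against 3.19 in SUMO2 and 1.2 in RERE. They formed 2 groups. Those nearer the 5′ end were 4 peaks of 131 to 233 nt between 3.0 and 5.45 kb. After an empty stretch of 7.45 kb came 9 peaks between 12.9 and 17.8 kb, the last of them 73133014 to 73133207. In this second group the peaks were 90 to 294 nt wide with a median of 256 nt, and they covered 2089 nt of 4862 nt. Neighbouring peaks of HN1 lay within 1 kb of each other in 11 of 12 cases, with a median gap of 375 nt. DHX9-mAb left no peak on this strand for 94.2 kb upstream of HN1 and for 2583 kb downstream.

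The neighbourhood of SUMO2 was not bare of DHX9-mAb peaks on the other strand. Within 50 kb of the SUMO2 interval, there were 17 DHX9-Rb peaks on the plus strand. Of these, the peak from 73116863 to 73117221 lay on the far side of HN1, and the rest lay upstream of SUMO2. DHX9-mAb had 3 peaks there, all upstream of SUMO2, at 73202253 to 73202501, 73203917 to 73204370 and 73219841 to 73220055. All 3 overlapped DHX9-Rb peaks. In the annotation of GRCh38, a later assembly, the next protein-coding gene after SUMO2 on that side is NUP85, a nuclear pore gene of the plus strand. The same annotation lets transcripts of JPT1 (HN1) run into SUMO2 on the shared strand. JPT1 is 33034 nt long there, against 19436 nt for the HN1 interval, and 12.6 kb lies between the intervals. If the 3′ ends of HN1 agree between the assemblies, JPT1 by these lengths stops short of every SUMO2 peak. The SUMO2 peak nearest the 3′ end runs from 73164562 to 73164699. No coordinate was converted, so this was not checked.

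ARIH2 and QRICH1 form another pair of neighbours, on opposite strands of chromosome 3 and 43.6 kb apart. ARIH2, on the plus strand from 48956000 to 49023495, had its DHX9-Rb peaks in 4 groups. Reading from the 5′ end, they held 6 peaks (4.51 to 7.01 kb), 5 peaks (19.6 to 23.9 kb), 4 peaks (34.6 to 36.4 kb) and 10 peaks (54.0 to 60.1 kb). DHX9-mAb had 7, 1, 0 and 0 peaks in these groups. All 6 DHX9-Rb peaks of the first group were shared, against 1 of the other 19.

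In the first group of ARIH2 the antibodies covered nearly the same amount of sequence, 1496 nt with DHX9-Rb and 1528 nt with DHX9-mAb. Over the 7 shared DHX9-Rb peaks of ARIH2, the start differed from that of the best overlapping DHX9-mAb peak by 1 to 207 nt (median 67) and the end by 20 to 63 nt (median 29). The closest starts were those of the DHX9-Rb peak from 48962129 to 48962312 and the DHX9-mAb peak from 48962130 to 48962269. The DHX9-mAb peaks were partly joined into a continuous stretch, since the widest (48961455 to 48961948, 494 nt) was followed without a gap by another of 165 nt. That wide peak touched 2 DHX9-Rb peaks, of 361 and 307 nt. The second group began with a shared peak as well. Its DHX9-Rb peak ran from 48975614 to 48975757 and its partner from 48975624 to 48975788, while its 4 later peaks had none.

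The last group of ARIH2 had DHX9-Rb peaks alone. Its 10 peaks ran from 49010024 to 49016084, were 115 to 451 nt wide and covered 2209 nt, more than the 1496 nt of the first group. The widest, 49013519 to 49013969, lay 37730 nt from the nearest DHX9-mAb peak of the strand. Its median width was 187 nt, against 247.5 nt in the first group. Past the 3′ end of the interval, 4 more DHX9-Rb peaks lay on the plus strand within 50 kb, none of them shared. In the annotation of GRCh38, the next protein-coding genes on that side are P4HTM and WDR6, both of the plus strand. Whether these peaks belong to ARIH2 transcripts was not checked.

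**Figure D2:**
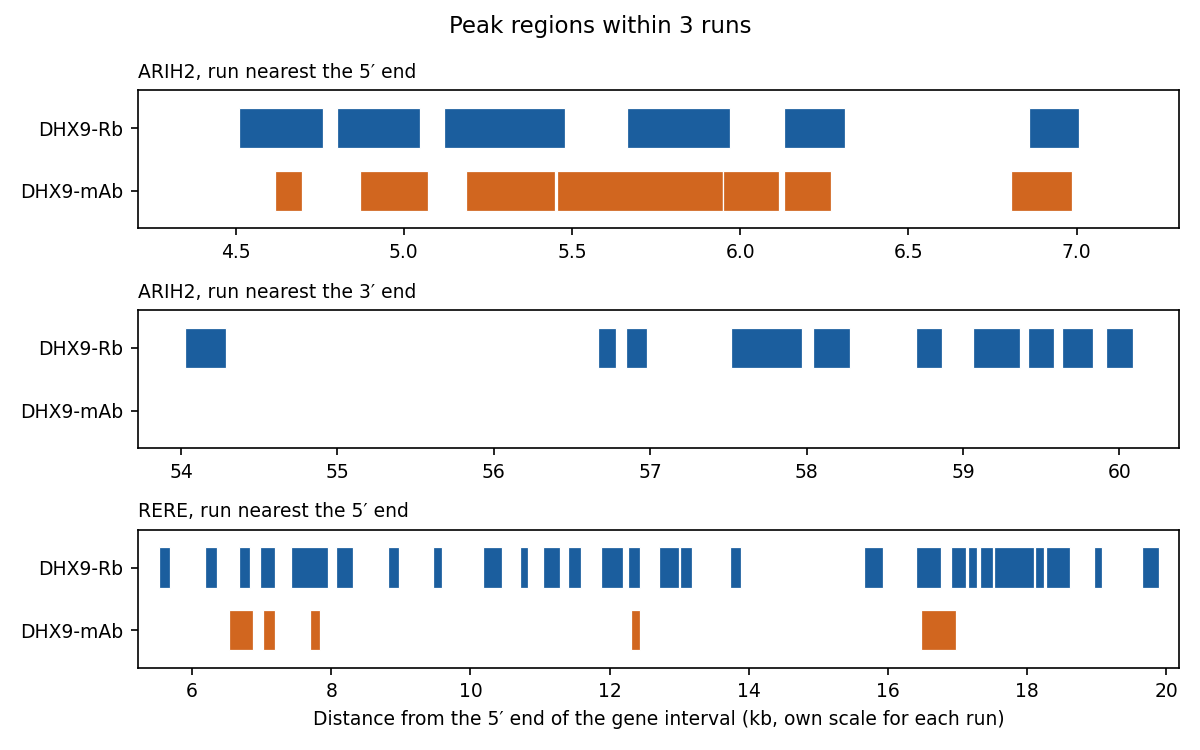
Peak regions in the first and last group of ARIH2 and the first group of RERE, by distance from the 5′ end of the interval in kb, each panel on its own scale. The first group of ARIH2 has 6 DHX9-Rb and 7 DHX9-mAb peaks, its last group has 10 and 0, and the first group of RERE has 27 and 5.

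QRICH1 lies on the minus strand from 49067143 to 49131504, and its 18 DHX9-Rb peaks had no DHX9-mAb partner. They came as 8 peaks between 6.96 and 13.0 kb from the 5′ end, 8 between 21.2 and 31.8 kb, and 2 between 54.4 and 55.5 kb. Thus 16 of the 18 had their midpoint in the first 50% of the interval, counted from the 5′ end. The peak nearest the 5′ end, 49124081 to 49124544, was the widest at 464 nt, and a second wide one ran from 49101573 to 49102012 (440 nt). The longest stretch between neighbouring peaks, 22.6 kb, separated the last pair from the rest. DHX9-mAb peaks on this strand were far away: 2388 kb upstream of the interval and 363 kb downstream.

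At the size of the wide QRICH1 peaks, shared peaks outnumbered unshared ones in the list. Of all DHX9-Rb peaks of 400 nt or more, 54.4% were shared. Among the members 8 peaks were that wide, 4 in RERE, 2 in QRICH1 and 1 each in ARIH2 and TRA2A. Of these 1 was shared, the RERE peak from 8869745 to 8870279 (535 nt). Since the genes were chosen for missing DHX9-mAb peaks, this count describes them and shows nothing about wide peaks in general.

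RERE is by far the longest of the genes, at 465.2 kb on the minus strand of chromosome 1 (8412464 to 8877699), and its peaks were crowded toward the 5′ end. Of 56 DHX9-Rb peaks, 54 had their midpoint in the first 50% of the gene. A group of 27 lay between 5.52 and 19.9 kb from the 5′ end, 12 between 34.5 and 48.0 kb and 13 between 83.8 and 102.9 kb. Only 4 lay further on, as a pair at 209.3 to 212.8 kb and a pair at 403.2 to 404.3 kb. Between these pairs 190.4 kb held no peak of either antibody.

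The 7 DHX9-mAb peaks of RERE fell as 5, 1 and 0 in those 3 large groups, 0 in the nearer pair and 1 in the farther pair. The group of 13 DHX9-Rb peaks thus had no counterpart, although it covered 2632 nt, close to the 2784 nt of the group of 12. Over the 8 shared DHX9-Rb peaks of RERE, the lower edge differed from that of the best overlapping DHX9-mAb peak by 1 to 211 nt (median 56) and the upper edge by 34 to 430 nt (median 63.5). The closest lower edges were those of the DHX9-Rb peak from 8865263 to 8865440 and the DHX9-mAb peak from 8865262 to 8865397. In the farthest pair the shared peak ran from 8474245 to 8474457 with DHX9-Rb and from 8474248 to 8474413 with DHX9-mAb.

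Some of the widest DHX9-Rb peaks of RERE had a DHX9-mAb peak close by but not on them. The widest, 8859605 to 8860179 (575 nt), lay 548 nt from the nearest DHX9-mAb peak. Another, 8839012 to 8839496 (485 nt), lay 122 nt from one that overlapped its narrower neighbour of 262 nt. Upstream of the gene, the nearest DHX9-mAb peak of the strand, 8921267 to 8921445, lay 43.6 kb from the interval. The DHX9-Rb peak beside it, 8921066 to 8921204 (139 nt), did not overlap it. In the annotation of GRCh38, the next protein-coding gene on that side is ENO1, also of the minus strand. Whether these peaks belong to RERE transcripts was not checked.

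TRA2A, on the minus strand of chromosome 7 from 23544399 to 23571660, had 7 DHX9-Rb peaks, none in the 12.7 kb nearest the 5′ end. The first 5 stood together from 12.7 to 15.4 kb and were 462, 194, 119, 176 and 146 nt wide. A single peak of 94 nt followed at 22.2 kb. The last, 23544384 to 23544544, crossed the 3′ end of the interval. Beyond that end, 3 more DHX9-Rb peaks lay within 5 kb on the strand, among them one of 597 nt from 23542533 to 23543129. With them TRA2A would have 10 DHX9-Rb peaks and still 0 DHX9-mAb peaks. The nearest DHX9-mAb peak of the strand was 61.0 kb downstream of the interval.

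No peak of either antibody lay on the opposite strand within any of the 6 intervals. The groups described for these genes were thus all on the sense strand.

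The DHX9-Rb peaks of these genes had a median width between those of the whole list and of its unshared peaks. The median was 194 nt (quartiles 155.5 to 263.5, n = 124 peaks), against 201 nt (152 to 273) in the whole list. The unshared peaks of the whole list had a median of 190 nt (147 to 249) and the shared ones 243 nt (172 to 338). Within the genes, unshared peaks had a median of 192 nt (n = 109) and shared peaks 217 nt (n = 15), and their ranges, 90 to 575 nt and 144 to 535 nt, overlapped almost entirely. By gene the median ran from 151 nt in SUMO2 and 161 nt in TRA2A through 194.5 nt in RERE, 198.5 nt in QRICH1 and 201 nt in ARIH2 to 233 nt in HN1. Peaks are not replicates, so no test was made of these widths, and the quartiles of all 6 genes overlapped.

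**Figure D3:**
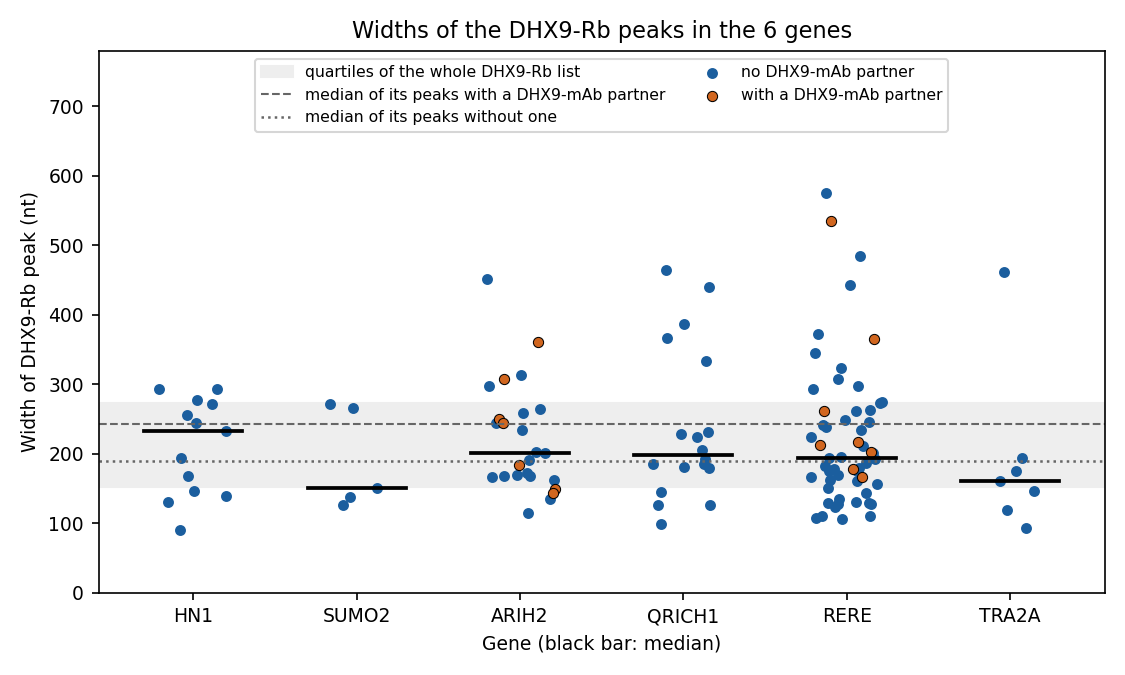
Width in nt of each DHX9-Rb peak in the 6 genes (points, with the gene's median as a black bar), beside the quartiles of the whole list (band) and its shared and unshared medians (lines at 243 and 190 nt). The 15 shared peaks of ARIH2 and RERE are spread among the unshared ones.

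Pooled over the 6 genes, spacing was near that of the list over all gaps, and looser among the short gaps. The pool was mixed. The median gap was 719 nt in the 4 genes with no DHX9-mAb peak (n = 39 gaps) and 309 nt in ARIH2 and RERE (n = 79). Neighbouring DHX9-Rb peaks within a gene were a median of 471.5 nt apart (quartiles 176.25 to 1316, n = 118 gaps), against 517 nt between neighbours of the whole list on a strand. The upper quartile of the whole list was 6443 nt, since its gaps also span the ground between genes. Among gaps of at most 5 kb the median was 384 nt in the 6 genes (n = 106) and 275 nt in the list (n = 15895), with quartiles of 150.25 to 830 nt and 98 to 677 nt. Within the set, ARIH2 had the closest peaks, a median gap of 223 nt, and SUMO2 the widest, 2166 nt. RERE, with 351 nt, combined close peaks with the longest empty stretches.

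To place these genes among others without an annotation of hg19, DHX9-Rb peaks with at most 5 kb between neighbours on a strand were joined into runs. Of 495 runs with at least 10 DHX9-Rb peaks, 13 had no DHX9-mAb peak, or 2.63%. In the 6 genes there were 4 such runs, of which 2 had none. They were the last group of ARIH2 (10 peaks) and the RERE group of 13. Both lie in genes that DHX9-mAb marked elsewhere. Of the 714 runs with 5 to 9 DHX9-Rb peaks, 156 had no DHX9-mAb peak, or 21.8%. Touching the 6 genes were 7 runs of that size, and 5 of them had none, namely the HN1 run of 9, both QRICH1 runs of 8 and both TRA2A runs of 5. One of the TRA2A runs had 2 of its 5 peaks in the gene and 3 beyond its 3′ end. These counts describe the choice of the genes and nothing is read from the difference.

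Runs with no DHX9-mAb peak were rarer among larger runs. The counts that follow include the runs of the 6 genes, which were chosen for missing DHX9-mAb peaks. Among runs of the same size, 9 of 82 runs with 9 peaks lacked DHX9-mAb, as the HN1 run did. So did 8 of 92 runs with 8 peaks, as in QRICH1. For 5 peaks, as in TRA2A, it was 74 of 230, and for 2 and 3 peaks, as in SUMO2, 636 of 989 and 262 of 540. A DHX9-Rb group without a DHX9-mAb peak was thus the usual case at the size seen in SUMO2 for runs of 2. It was uncommon at the size of the large RERE run without one, where 2 of 44 runs of 13 peaks lacked DHX9-mAb. ARIH2 had runs toward both ends of this range. Its first run of 6 peaks, with 7 DHX9-mAb peaks, was among 5 of 167 runs of that size with 7 or more, where the median run had 2. Some of these 7 lie end to end, and merging lowers the DHX9-mAb count of the gene from 8 to 5. Its last run of 10 was among 5 of 63 with none. The RERE run of 27 had 5 DHX9-mAb peaks, and the median over the 7 runs of its size was 12. The number of member runs depended on the joining distance. With 2 kb, 1 run in the genes reached 10 peaks and 0 lacked DHX9-mAb, and with 10 kb there were 7 and 5.

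**Figure D4:**
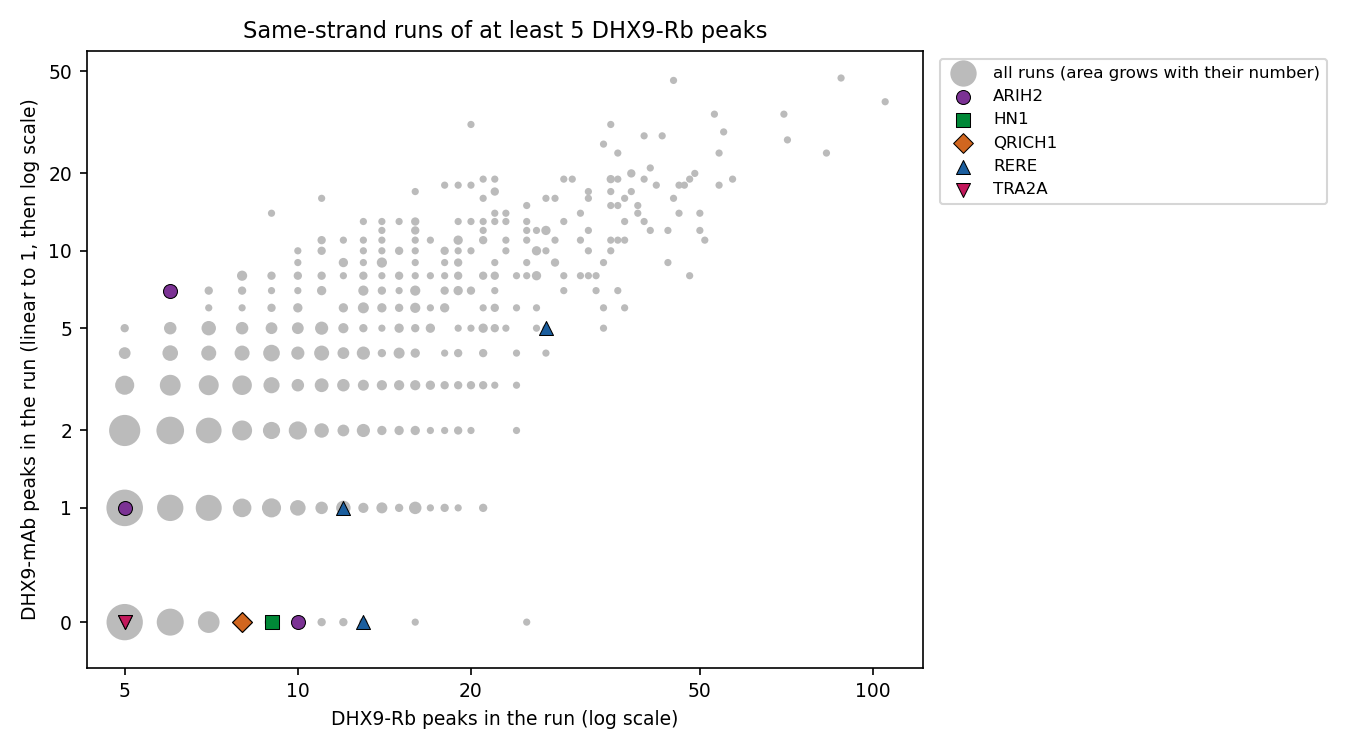
Number of DHX9-mAb peaks against DHX9-Rb peaks in every same-strand run of at least 5 DHX9-Rb peaks (grey, area growing with the number of runs; x axis on a log scale, y axis linear to 1 and then on a log scale), with the runs of the genes as coloured markers. The QRICH1 runs of 8 peaks coincide, as do the TRA2A runs of 5, and the ARIH2 run of 10 and the RERE run of 13 lie on the line of 0 DHX9-mAb peaks.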

How the data were processed

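Per the labels' protocols, UV-irradiated cells were lysed and sonicated, DHX9 was captured on antibody-coated beads, RNA was trimmed with RNase I, and barcoded adapters carrying random bases were ligated. Control and DHX9 material were pooled before cDNA synthesis, so the lists do not come from fully separate libraries. Per the submitters' processing notes, Bowtie2 2.2.6 and hg19 were used. The deposited values are peak positions and strands, and per the file's second column the authors called them with PEAKachu. Not given in the sources used here are the threshold, the control and the treatment of reads that map to repeats, and no score is filled in.

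Here, peaks were assigned to a gene when they overlapped its interval by at least 1 nt on its strand. Intervals and members were chosen with earlier results of these data known, so no test was run. The rule for what to name was all 6 genes, with single peaks named where they met or lay nearest a DHX9-mAb peak, were extreme in width or bounded a gap. Widths and gaps count bases, the latter between the end of a peak and the start of the next. Shares of member peaks carry no interval, because the genes were chosen on them. Symbols, neighbours and lengths came from RefSeq and GENCODE on GRCh38, with all 6 genes matched. No coordinate was converted, and no hg19 sequence was read. The interval lengths could be compared with RefSeq: 15671 against 17374 nt for SUMO2, 19436 against 19270 nt for HN1, and within 400 nt for the others. The measures were tested on simulated data. Python 3.11.15, NumPy 2.4.6, SciPy 1.17.1, pandas 2.3.3 and matplotlib 3.10.9 were used.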

Additional observations from a re-analysis of the deposited data

How the results depend on the processing

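No paired analysis was possible because each list pools its replicates and no test was run. For the same reason no replicate could be left out, and with no score a width of at least 150 nt stood in for a stricter threshold. The 0 DHX9-mAb peaks of HN1, SUMO2, QRICH1 and TRA2A stayed at 0 in all 16 recounts (midpoint rule, interval extended by 5 kb, peaks within 50 nt merged, width of at least 150 nt). No other outcome was possible, since the nearest DHX9-mAb peak of the strand lay 61.0 kb or more outside each of these intervals. These 16 recounts therefore show nothing about how stable the result is. At 150 nt or more SUMO2 had 3 DHX9-Rb peaks and TRA2A 4, and merging left ARIH2 with 5 DHX9-mAb peaks. Of 48 recounts of single genes, which include those 16 with a fixed outcome, these 3 moved beyond 1.5 times and 45 stayed within it. Among recounts of the pooled and whole-list results, 15 moved and 20 did not. There, a count moved beyond 1.5 times, and a share or median moved outside the 95% interval of its reported value. Leaving out a gene was added after seeing the data. Without RERE the counts were 68 (DHX9-Rb) and 8 (DHX9-mAb), and without ARIH2 the DHX9-mAb count was 7. The share of all DHX9-Rb peaks that were shared was 21.2% when 50% of the peak had to be covered, 36.7% with a DHX9-mAb peak within 200 nt, 27.8% after merging and 25.9% at 150 nt or more. The 6 genes gave 9.68, 16.1, 12.4 and 9.47% under these settings. Merging moved the median width of all DHX9-Rb peaks to 209 nt and their median spacing to 693 nt. In the 6 genes the merged values were 202 nt and 500 nt, so the spacing was less near that of the list than without merging. Between midpoints the spacing was 686 nt in the genes and 753.5 nt in the list, as follows from adding peak widths. With runs of at least 5 peaks, 14.0% of all runs and 7 of 11 in the genes lacked DHX9-mAb. With runs joined up to 2 or 10 kb, the genes had 0 and 5 such runs. The depth behind each peak is unknown, so a missing DHX9-mAb peak does not show that no RNA was bound.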
